A study of Homo sapiens with 18 samples.

Results

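The genes described here are 10 members of the forkhead family of transcription factors: FOXO1, FOXO3 and FOXO4 of the FOXO group, FOXK1 and FOXK2, FOXP1 and FOXP4, and FOXJ3, FOXC1 and FOXQ1. They were taken by their Entrez gene IDs from the 23604 gene entries listed in at least 1 RNA-Seq library, and all 10 were among the 16948 genes that passed the filter on low counts. The cells were MCF10A-ErSrc, a human breast epithelial line that carries the v-Src oncoprotein fused to the ligand-binding domain of the oestrogen receptor, so that tamoxifen switches the kinase on and the cells transform. Cells not treated with tamoxifen (NT) and tamoxifen-treated, transformed cells (TAM) were incubated for 4 h with 0.125 µM triptolide (TPL), a diterpene that binds XPB, the ATPase of the transcription factor TFIIH, or with the solvent DMSO. Each of the 4 groups (NT, NT+TPL, TAM, TAM+TPL) had 2 poly-A RNA-Seq libraries, described as independent biological replicates, and RNA polymerase II (RNAPII) ChIP-Seq gave 1 list of peaks per group. All groups come from this line alone.

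Forkhead factors bind DNA through a winged-helix domain that recognises a core with the letters GTAAACA. FOXO factors act downstream of insulin and growth factor receptors: the kinase AKT phosphorylates them, 14-3-3 proteins hold them and the exportin XPO1 carries them out of the nucleus, and when this signal drops they return and switch on genes for cell-cycle arrest, stress defence, autophagy and cell death. FOXK1 and FOXK2 are ubiquitous repressors that recruit SIN3-HDAC complexes and the BAP1 deubiquitinase, and FOXP factors are repressors that pair through a leucine zipper and work with HDAC-containing corepressors. FOXC1 and FOXQ1 lie in a forkhead gene cluster on the short arm of chromosome 6; FOXC1 is abundant in basal-like breast cells, and FOXQ1 is known for its part in epithelial plasticity. Since most of this control acts on the proteins, a transcript level says nothing about the activity of a FOXO factor.

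The RNA-Seq libraries summed to between 7461309 and 8349448 expected counts. All 10 markers of basal breast epithelium averaged at least 1 FPKM (fragments per kilobase of transcript, scaled to the mapped fragments of the library), with a summed level between 3952 and 18704 FPKM, while 2 of 3 endothelial markers were listed and summed to between 0.46 and 1.73 FPKM. Of 4 leukocyte markers 3 were listed, with a sum between 18.6 and 48.9 FPKM that was mostly LYZ, the lysozyme gene (31.6 and 18.8 FPKM in NT cells, 33.1 and 47.2 after TPL, 21.6 and 17.9 in TAM cells, 40.1 and 42.1 in TAM cells after TPL), while the pan-leukocyte gene PTPRC was at most 2.14 and the T-cell gene CD3E at most 0.17 FPKM. The 4 fibroblast markers summed to between 4.21 and 12.8 FPKM and the 2 luminal markers, ESR1 and PGR, to between 36.9 and 248 FPKM, with PGR at most 0.01. The Src fusion of this line holds a domain of the oestrogen receptor, and whether ESR1 reads came from the fusion was not tested. The ESR1 level is therefore not taken as a luminal trait. The sum of the basal markers was lowest in the TAM+TPL libraries and rests on abundant keratins such as KRT5 (475 and 434 FPKM there against 6250 and 5776 in NT), whereas single markers differed, with KRT14 and TP63 lowest in an NT+TPL library and EPCAM highest in TAM+TPL. The part of these differences in the results was not tested. In bulk RNA, less RNA per cell and fewer cells that make it cannot be told apart, and scaling to library size hides a change in total RNA. The comparisons of TPL against DMSO and of TAM against NT share libraries, so their values are given side by side.

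Levels spanned from under 1 to about 25 FPKM. In NT cells FOXP4 (mean 24.3 FPKM) and FOXK2 (23.2 FPKM) led and their ranges overlapped, followed by FOXJ3 (15.6 FPKM), FOXO1 (11.9 FPKM) and FOXO3 (11.5 FPKM), 3 genes whose neighbouring ranges overlapped, then by FOXC1 (8.75 FPKM), FOXK1 (6.07 FPKM), FOXP1 (2.44 FPKM), FOXO4 (2.07 FPKM) and FOXQ1 (0.84 FPKM), which did not. FOXC1 ranked 6 of the 10 in NT cells and 3 in TAM cells. It had the highest mean of the 10 in both TPL groups, with 17.8 FPKM in NT+TPL and 15.9 FPKM in TAM+TPL. In NT+TPL its range lay above that of FOXP4, the next in order. In TAM+TPL the ranges nearly met, with 13.67 FPKM in the lower FOXC1 library and 13.66 in the higher FOXP4 library. FOXK2 went the other way and ranked 4 in both TPL groups, with 9.76 FPKM in NT+TPL and 8.81 FPKM in TAM+TPL. The FPKM of the 10 genes summed to 99.5 and 114 in NT cells, 80.6 and 69.0 after TPL, 108 and 98.5 in TAM cells and 63.9 and 68.3 in TAM cells after TPL, so the TPL libraries lay below the DMSO libraries in both states. FOXC1 made up between 7.92% and 15.0% of this sum in the DMSO libraries and between 21.0% and 27.0% in the TPL libraries.

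**Figure D1:**
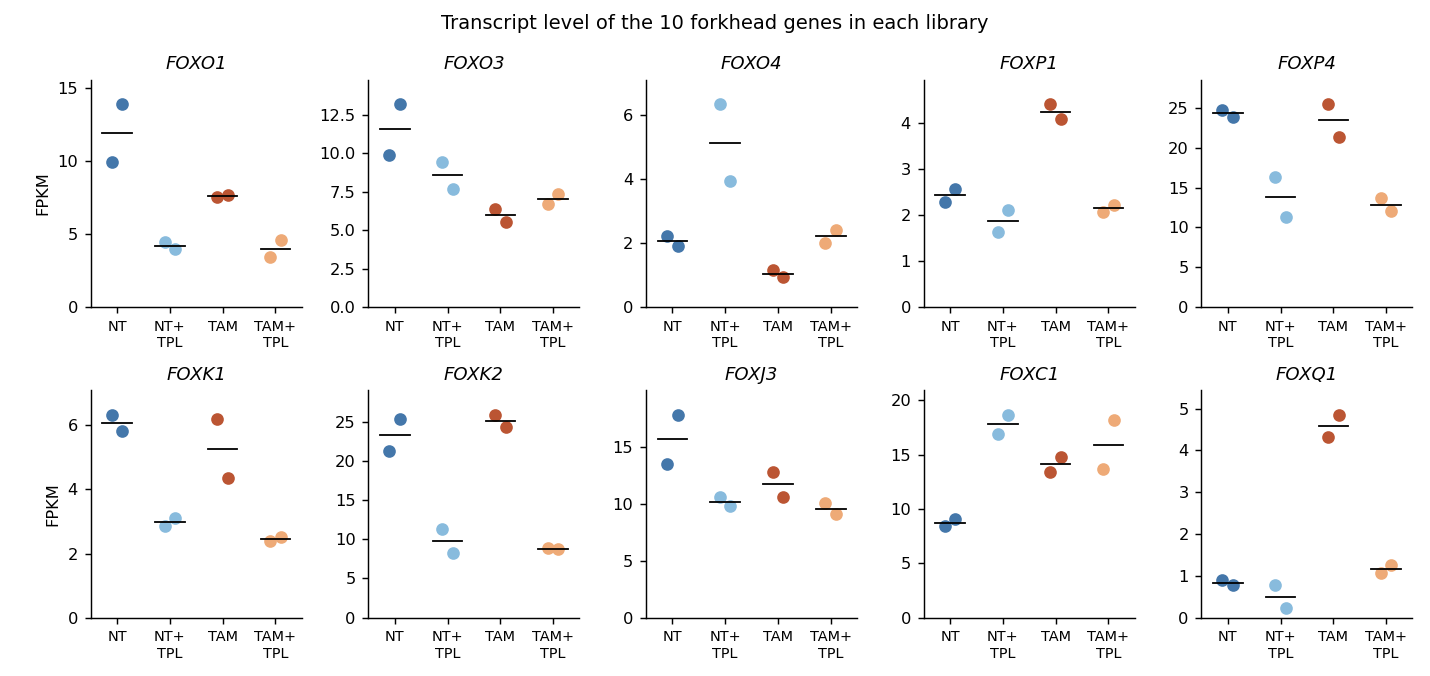
Level of each of the 10 genes in FPKM (vertical axis, from 0) in the 2 libraries (points) and their mean (line) of each of the 4 groups. FOXK2 falls from between 21.2 and 25.9 FPKM in the DMSO libraries to between 8.23 and 11.3 with TPL, FOXC1 is lowest in NT cells, and FOXQ1 stands out in TAM cells at 4.33 and 4.85 FPKM.

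The promoter windows of 5 of the genes are shown because they carry the contrasts described below: a pair of FOXO genes whose transcripts moved in opposite directions with TPL, the FOXK gene with the strongest fall, and the neighbours FOXC1 and FOXQ1. Each runs from 250 bases before to 29 bases after the main transcription start site (TSS; Ensembl canonical transcript of GENCODE release 44 on build 37), read 5′ to 3′ on the gene's strand. Capitals mark letters found on either strand. These are first the forkhead core GTAAACA, where the family itself binds, and then CCAAT, the box bound by the factor NF-Y. They also cover GGGCGG, the GC box bound by factors of the SP family, and the E-box with the letters CACGTG, bound by MYC and related proteins. The core of the TATA element (TATAAA) was searched too, as was the cyclic AMP response element, CRE, with the letters TGACGTCA. The windows lie at chr13:41240749-41241028 on the minus strand for FOXO1, chrX:70315451-70315730 on the plus strand for FOXO4, chr17:80477358-80477637 on the plus strand for FOXK2, chr6:1609900-1610179 on the plus strand for FOXC1 and chr6:1312083-1312362 on the plus strand for FOXQ1.
FOXO1: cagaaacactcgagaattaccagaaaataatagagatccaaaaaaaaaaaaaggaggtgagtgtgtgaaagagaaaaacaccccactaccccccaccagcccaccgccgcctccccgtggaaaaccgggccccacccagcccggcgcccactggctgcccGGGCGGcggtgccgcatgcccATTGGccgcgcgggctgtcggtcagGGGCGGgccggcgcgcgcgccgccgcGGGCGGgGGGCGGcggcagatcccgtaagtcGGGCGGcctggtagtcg
FOXO4: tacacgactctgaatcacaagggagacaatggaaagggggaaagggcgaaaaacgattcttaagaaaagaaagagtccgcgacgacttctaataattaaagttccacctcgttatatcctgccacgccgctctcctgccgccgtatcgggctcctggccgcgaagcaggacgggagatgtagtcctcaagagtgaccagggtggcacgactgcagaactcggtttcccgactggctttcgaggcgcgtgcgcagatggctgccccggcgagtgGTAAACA
FOXK2: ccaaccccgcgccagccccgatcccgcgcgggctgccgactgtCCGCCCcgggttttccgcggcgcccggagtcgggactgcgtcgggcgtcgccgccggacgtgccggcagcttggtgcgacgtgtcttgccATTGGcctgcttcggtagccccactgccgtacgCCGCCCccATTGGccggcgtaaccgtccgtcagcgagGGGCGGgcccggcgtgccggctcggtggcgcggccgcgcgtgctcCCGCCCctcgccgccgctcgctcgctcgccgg
FOXC1: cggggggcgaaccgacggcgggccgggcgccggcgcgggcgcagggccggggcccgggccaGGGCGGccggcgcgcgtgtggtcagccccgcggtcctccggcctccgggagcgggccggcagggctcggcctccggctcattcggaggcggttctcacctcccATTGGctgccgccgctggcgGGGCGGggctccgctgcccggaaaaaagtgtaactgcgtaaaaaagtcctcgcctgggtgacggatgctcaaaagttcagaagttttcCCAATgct
FOXQ1: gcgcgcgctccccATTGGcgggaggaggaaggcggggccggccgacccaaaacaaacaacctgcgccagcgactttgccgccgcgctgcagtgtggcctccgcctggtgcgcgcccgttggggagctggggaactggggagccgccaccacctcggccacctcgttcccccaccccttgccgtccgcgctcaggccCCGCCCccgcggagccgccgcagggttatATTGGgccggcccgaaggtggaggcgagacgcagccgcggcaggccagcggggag
The FOXO4 window had a GC content of 55.4%, below the median of 63.2% over 19881 protein-coding genes. It alone of the 10 held GTAAACA, with its first base 23 bases after the TSS. It held no GC box, and neither did the FOXP1 window. Over all windows 2.31% held GTAAACA and 60.6% held a GC box. The FOXO1 window held 5 GC boxes and 1 CCAAT box, and the FOXK2 window held 4 GC boxes and 2 CCAAT boxes at 76 and 117 bases before the TSS; 35.4% of all windows held a CCAAT box. FOXC1 and FOXQ1 each held 2 CCAAT boxes, with 2 GC boxes in FOXC1 and 1 in FOXQ1. Of the genes not printed, FOXP1 held none of these letters, FOXP4 and FOXK1 each held an E-box (8.55% of all windows) and 4 GC boxes, FOXO3 held 4 and FOXJ3 2 GC boxes, and no window of the 10 held TATAAA (9.47% of all) or the CRE (2.68%). Neighbouring GC boxes overlap in FOXP4 and FOXJ3. These letters describe the windows and show no binding.

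TPL lowered more of the 10 transcripts than it raised. With an adjusted p of at most 0.05 (edgeR, quasi-likelihood test), 5 fell in NT cells (FOXO1, FOXK2, FOXK1, FOXP4 and FOXJ3) and 2 rose (FOXO4 and FOXC1), against 19.8% of the 16948 genes tested that fell and 17.2% that rose. In TAM cells 6 fell (FOXK2, FOXK1, FOXP4, FOXP1, FOXO1 and FOXQ1) and 1 rose (FOXO4), against 18.6% that fell and 14.3% that rose among all genes. The median log2 fold change of the 10 was -0.69 in NT cells and -0.95 in TAM cells, beside 0.09 and 0.05 over all genes tested. The members and the gene lists below were chosen with earlier results of these data known. Their contrast with all genes is therefore described and not tested. FOXO1, FOXK1, FOXK2 and FOXP4 fell in both states, as did 14.2% of all genes, and FOXO4 rose in both, as did 9.86%. In NT cells 8 genes had both TPL libraries below both DMSO libraries (32.7% of all genes) and 2 had them above (36.4%); in TAM cells these numbers were 7 (34.7%) and 2 (40.0%). At the study's stricter limits (adjusted p no higher than 0.001, absolute log2 fold change no lower than 1.2), 0 of the 10 passed in either state, where 3.93% of all genes passed in NT and 2.88% in TAM cells; an unadjusted p under 0.05 was seen for 8 members in NT (47.8% of all genes) and 7 in TAM cells (45.1%), and with DESeq2 and the adjusted threshold of 0.05 the counts were 7 and 7. Shares of all genes that passed a test are from edgeR throughout, and the share that DESeq2 called was not counted. In the mean of the TPL effects over both states, 7 members fell (26.1% of all genes) and 2 rose (25.6%), FOXO3 alone not passing, and 2 passed the stricter limits (10.1% of all genes): FOXK2 (-1.41 ± 0.12 SE on the log2 scale, adjusted p = 0.000164) and FOXO1 (-1.24 ± 0.15 SE, adjusted p = 0.000679). Scaling each library to equal GAPDH counts gave 0 rises and 6 falls in each state: in NT cells FOXO4 and FOXC1 then missed the threshold and FOXO3 passed as a fall (-0.82, adjusted p = 0.0403), and in TAM cells FOXO4 missed it. Of all calls, 23.7% were rises in NT cells under that scaling, 60.9% under upper-quartile scaling and 46.5% as reported. In TAM cells 34.7% were rises under GAPDH scaling and 43.5% as reported. Over all genes, GAPDH scaling gave 1358 rises and 4381 falls in NT cells, and 1626 rises and 3056 falls in TAM cells. Falls were thus more frequent among all genes too under that scaling.

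**Figure D2:**
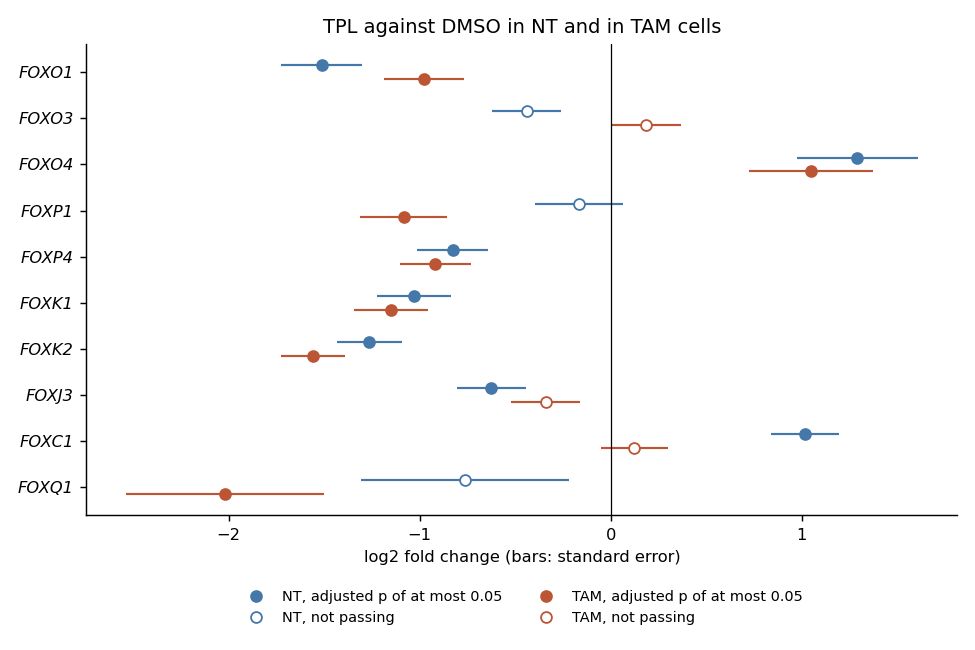
Log2 fold change of TPL against DMSO (horizontal axis) for each gene in NT (blue) and TAM cells (red), with bars of 1 standard error from the fit of 4 groups and filled points where the adjusted p is at most 0.05. FOXK1, FOXK2, FOXP4 and FOXO1 lie left of 0 and FOXO4 right of 0 in both states, while FOXC1 is at 1.02 in NT and 0.12 in TAM cells.

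The 3 FOXO genes did not move together. FOXO1 (chr13:41129804-41240778), an effector of insulin signalling, had 9.97 and 13.92 FPKM in NT cells, 4.46 and 3.95 after TPL, 7.57 and 7.69 in TAM cells and 3.45 and 4.57 in TAM cells after TPL. The TPL libraries lay below the DMSO libraries in both states. FOXO1 fell 2.85-fold in NT cells (-1.51 ± 0.21 SE on the log2 scale, adjusted p = 0.00249) and 1.97-fold in TAM cells (-0.98 ± 0.21 SE, adjusted p = 0.0137). The call in NT cells held without any 1 library; in TAM cells it was lost without TAM replicate 1 (adjusted p = 0.0612), TAM replicate 2 (0.0683) or TAM+TPL replicate 1 (0.0918). FOXO3 (chr6:108881038-109005977), a factor known for stress and longevity genes, had 9.90 and 13.19 FPKM in NT cells, 9.45 and 7.69 after TPL, 6.39 and 5.51 in TAM cells and 6.70 and 7.33 in TAM cells after TPL. Its TPL libraries lay below the DMSO libraries in NT cells and above them in TAM cells, but neither difference passed the test (-0.44 ± 0.18 SE on the log2 scale, adjusted p = 0.0976, and 0.19 ± 0.18 SE, adjusted p = 0.457). The nearly identical copy FOXO3B shares reads with FOXO3, and the authors' estimate gave it between 1.503% and 10.003% of the expected counts of both. The share was 10.003% and 8.39% in NT and lowest in TAM+TPL, with 1.503% and 3.42%. It is an estimate and sets no bound on misassigned reads. Its part in the group comparisons of FOXO3 was not tested.

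FOXO4 (chrX:70315701-70323382), the FOXO gene with the lowest level in DMSO cells, had 2.22 and 1.91 FPKM in NT cells, 6.34 and 3.93 after TPL, 1.16 and 0.93 in TAM cells and 1.99 and 2.42 in TAM cells after TPL. TPL raised it 2.45-fold in NT cells (1.29 ± 0.32 SE on the log2 scale, adjusted p = 0.0193) and 2.07-fold in TAM cells (1.05 ± 0.32 SE, adjusted p = 0.0460). Its share of the summed FOXO FPKM went from 10.05% and 6.58% in NT to 31.3% and 25.2% in NT+TPL, and from 7.67% and 6.58% in TAM to 16.4% and 16.9% in TAM+TPL. The NT call was lost without NT replicate 1 (adjusted p = 0.0645), NT replicate 2 (0.111) or NT+TPL replicate 1 (0.0747), and the TAM call without any of the 4 libraries compared (0.101 and 0.203 without TAM replicates 1 and 2, 0.107 and 0.180 without TAM+TPL replicates 1 and 2) or without NT replicate 1 (0.0709) or 2 (0.0706). The TAM call was also lost with no filter on low counts (adjusted p = 0.0788), with the TAM groups fitted alone (0.0503), with limma on log2(FPKM + 1) (0.0687, and 0.0707 for genes with a mean of at least 1 FPKM) and with a replicate block (0.0577), and both calls under GAPDH scaling (0.0646 in NT and 0.0766 in TAM cells). The fold changes kept their sign throughout.

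Both FOXK genes fell with TPL in both states. FOXK2 (chr17:80477589-80602538) had 21.20 and 25.27 FPKM in NT cells, 11.29 and 8.23 after TPL, 25.86 and 24.30 in TAM cells and 8.87 and 8.74 in TAM cells after TPL. It fell 2.40-fold in NT cells (-1.26 ± 0.17 SE on the log2 scale, adjusted p = 0.00202) and 2.95-fold in TAM cells (-1.56 ± 0.17 SE, adjusted p = 0.00114). FOXK1 (chr7:4721926-4811073), its close relative, had 6.32 and 5.81 FPKM in NT cells, 2.86 and 3.10 after TPL, 6.18 and 4.35 in TAM cells and 2.40 and 2.51 in TAM cells after TPL. It fell 2.04-fold in NT cells (-1.03 ± 0.19 SE, adjusted p = 0.00730) and 2.22-fold in TAM cells (-1.15 ± 0.19 SE, adjusted p = 0.00554). No TPL library of either gene reached the lowest DMSO library. These 4 calls held in every scaling, filter and test tried and without any 1 library, with an adjusted p of at most 0.0488.

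The FOXP genes fell in TAM cells, and only FOXP4 passed in NT cells. FOXP4 (chr6:41514119-41570122) had 24.77 and 23.92 FPKM in NT cells, 16.38 and 11.32 after TPL, 25.51 and 21.39 in TAM cells and 13.66 and 12.02 in TAM cells after TPL, and it fell 1.77-fold in NT cells (-0.83 ± 0.19 SE on the log2 scale, adjusted p = 0.0142) and 1.89-fold in TAM cells (-0.92 ± 0.19 SE, adjusted p = 0.0108). FOXP1 (chr3:71003844-71633129), known in B cells and in heart and breast epithelium, had 2.29 and 2.58 FPKM in NT cells, 1.63 and 2.12 after TPL, 4.42 and 4.09 in TAM cells and 2.08 and 2.22 in TAM cells after TPL. Its level was high in the TAM libraries alone, and TPL lowered it 2.12-fold there (-1.08 ± 0.23 SE, adjusted p = 0.0122), while the difference in NT cells was -0.17 ± 0.23 SE (adjusted p = 0.596). The TPL effects in the 2 states differed by -0.92 ± 0.32 SE on the log2 scale, with an unadjusted p of 0.0245 and an adjusted p of 0.391 in edgeR's quasi-likelihood test. The call of FOXP4 in NT cells was lost without NT replicate 1 (adjusted p = 0.0596), NT replicate 2 (0.0595) or NT+TPL replicate 2 (0.0501) and that in TAM cells without TAM replicate 1 (0.0688) or TAM+TPL replicate 1 (0.0559) or 2 (0.0837), and the FOXP1 call in TAM cells without TAM replicate 1 (0.0672) or 2 (0.0506) or TAM+TPL replicate 1 (0.0854). An antisense gene at the FOXP4 locus, FOXP4-AS1, had at most 6 expected counts per library, and whether the counting used strand is not stated in the sources used here.

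FOXJ3 (chr1:42642210-42801548), a widely expressed forkhead factor, had 13.47 and 17.78 FPKM in NT cells, 10.55 and 9.79 after TPL, 12.78 and 10.60 in TAM cells and 10.01 and 9.12 in TAM cells after TPL. It had the smallest of the falls that passed in NT cells, 1.54-fold (-0.62 ± 0.18 SE on the log2 scale, adjusted p = 0.0338), and did not pass in TAM cells (-0.34 ± 0.18 SE, adjusted p = 0.186). The NT call was lost without NT replicate 2 (adjusted p = 0.183), NT+TPL replicate 1 (0.0721) or 2 (0.107), or TAM+TPL replicate 1 (0.0614) or 2 (0.0617), and also under upper-quartile scaling (0.103), with the NT groups fitted alone (0.0890) and with a replicate block (0.0578).

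FOXC1 and FOXQ1 lie 297817 bases apart by their starts and did not move together. FOXC1 (chr6:1610150-1614132) had 8.46 and 9.04 FPKM in NT cells, 16.90 and 18.65 after TPL, 13.42 and 14.79 in TAM cells and 13.67 and 18.15 in TAM cells after TPL. NT cells stood apart as the low group. TPL raised FOXC1 2.03-fold in NT cells (1.02 ± 0.18 SE on the log2 scale, adjusted p = 0.00576), a call that held without any 1 library and was lost under GAPDH scaling (adjusted p = 0.0869), while in TAM cells the libraries overlapped (0.12 ± 0.18 SE, adjusted p = 0.611). The difference between these TPL effects was -0.89 ± 0.25 SE, with an unadjusted p of 0.00915; its adjusted p was 0.289 in edgeR and 0.0339 in DESeq2. FOXQ1 (chr6:1312333-1314993) had 0.89 and 0.79 FPKM in NT cells, 0.78 and 0.23 after TPL, 4.33 and 4.85 in TAM cells and 1.08 and 1.25 in TAM cells after TPL, which rest on 17 and 15, 14 and 4, 85 and 95, and 19 and 24 expected counts. Only the TAM libraries were high, and TPL lowered FOXQ1 4.05-fold there (-2.02 ± 0.52 SE, adjusted p = 0.0249); in NT cells the difference was -0.76 ± 0.55 SE (adjusted p = 0.303). The TAM call of FOXQ1 was lost without TAM replicate 1 (adjusted p = 0.0843) or 2 (0.109) or TAM+TPL replicate 1 (0.132) or 2 (0.102), and without NT+TPL replicate 1, the higher of its pair, the NT difference was -1.84 (0.0285).

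Between them in this cluster lies FOXF2 (chr6:1389811-1395838), which is no member of the set but the forkhead gene with the strongest fall. It had 13.21 and 15.94 FPKM in NT cells, 0.59 and 0.48 after TPL, 16.42 and 15.09 in TAM cells and 0.24 and 0.39 in TAM cells after TPL. The log2 fold change with TPL was -4.75 ± 0.26 SE in NT cells (adjusted p = 0.000195) and -5.64 ± 0.28 SE in TAM cells (adjusted p = 0.000234). The 3 forkhead genes within 297817 bases of each other thus had a rise, no call and a fall in NT cells, and no call and 2 falls in TAM cells.

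Fewer of the 10 transcripts differed between TAM and NT cells. With DMSO, 2 were higher in TAM than in NT cells (FOXQ1 and FOXP1; 3.46% of all genes tested were higher) and 1 was lower (FOXO3; 3.39% of all genes). Under GAPDH scaling 1 was higher (FOXQ1) and 3 were lower (all 3 FOXO genes). Over all genes 321 were then higher and 1687 lower in TAM cells. This made 16.0% of the calls higher, against 50.5% as reported. FOXQ1 was 5.49-fold higher in TAM cells (2.46 ± 0.53 SE on the log2 scale, adjusted p = 0.0403) and FOXP1 2.06-fold higher (1.05 ± 0.23 SE, adjusted p = 0.0410). FOXO3 was 1.92-fold lower (-0.94 ± 0.18 SE, adjusted p = 0.0276). The other FOXO genes had differences of the same sign that did not pass (FOXO1 -0.63 ± 0.21 SE, adjusted p = 0.143, and FOXO4 -0.99 ± 0.32 SE, adjusted p = 0.145); FOXO1 passed with DESeq2 (adjusted p = 0.0478) and under GAPDH scaling (0.0486), and FOXO4 under GAPDH scaling (0.0383). The summed FOXO level was 22.1 and 29.02 FPKM in NT and 15.1 and 14.1 in TAM. FOXC1 missed the threshold (0.71 ± 0.18 SE, adjusted p = 0.0686) and passed with DESeq2 (adjusted p = 0.00221), with at least 10 counts in every library (0.0397), with the NT and TAM groups fitted alone (0.0364) and with summed entries (0.0357). FOXK1, FOXK2 and FOXP4, which fell with TPL in both states, had overlapping ranges in NT and TAM cells with DMSO. At the stricter limits 0 of the 10 passed (0.655% of all genes), and 6 had an unadjusted p under 0.05 (19.9%). All 3 calls were near the threshold. FOXO3 was lost without NT replicate 2 (adjusted p = 0.146), TAM replicate 1 (0.118) or 2 (0.206) or TAM+TPL replicate 1 (0.0737) or 2 (0.0742); FOXP1 was lost without NT replicate 1 (0.228) or 2 (0.109), TAM replicate 1 (0.196) or 2 (0.163) or TAM+TPL replicate 1 (0.0683) or 2 (0.0668), under GAPDH scaling (0.236), with no filter on low counts (0.0527) and with limma (0.0988 on log2(FPKM + 1) and 0.122 on log2(FPKM + 0.1)). FOXQ1 was lost without NT replicate 1 (0.179) or 2 (0.211), TAM replicate 1 (0.147) or 2 (0.197) or TAM+TPL replicate 1 (0.0819) or 2 (0.0827).

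With TPL present, 0 of the 10 differed between TAM and NT cells in edgeR's quasi-likelihood test (7.03% of all genes tested passed); 1 had an unadjusted p under 0.05 (21.3% of all genes), and DESeq2 called 1. Both were FOXO4, which was lower in TAM+TPL than in NT+TPL (-1.23 ± 0.32 SE on the log2 scale, adjusted p = 0.0687, and 0.0156 in DESeq2). Without NT+TPL replicate 1, FOXQ1 passed as well (2.31, adjusted p = 0.0444). FOXP1 and FOXQ1, raised in TAM cells with DMSO, had differences of 0.13 ± 0.23 SE and 1.198 ± 0.54 SE with TPL. The test of whether the TPL effect differed between the states called 0 of the 10 (0.165% of all genes passed); 3 had an unadjusted p under 0.05, as did 10.6% of all genes (FOXC1, FOXP1 and FOXO3, the last with a difference of 0.63 ± 0.26 SE and an adjusted p of 0.469), and DESeq2 called FOXC1 alone.

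**Figure D3:**
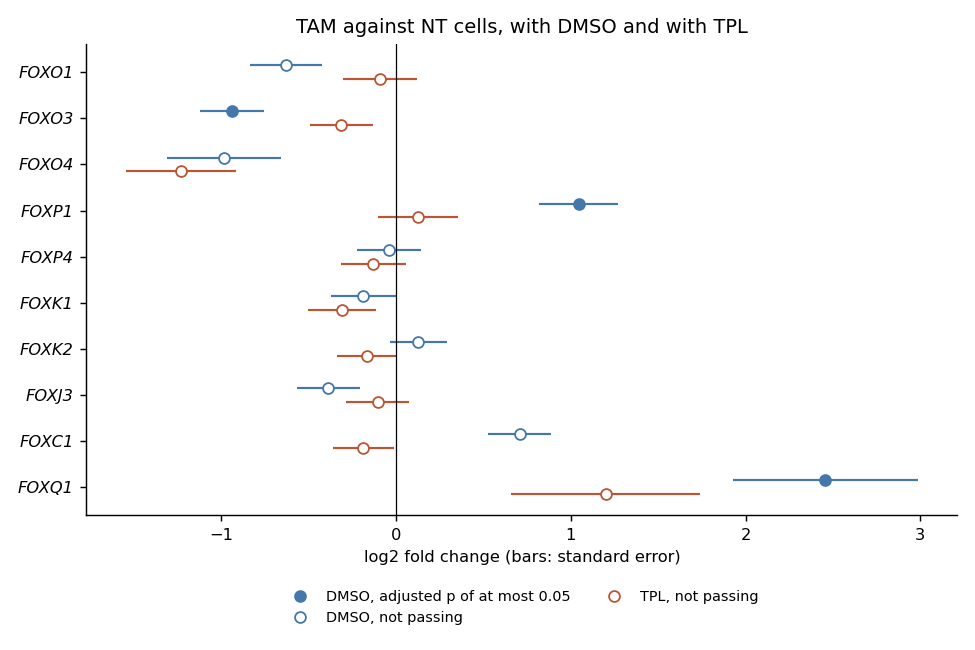
Log2 fold change of TAM against NT cells (horizontal axis) for each gene with DMSO (blue) and with TPL (red), with bars of 1 standard error and filled points where the adjusted p is at most 0.05. Only FOXO3, FOXP1 and FOXQ1 with DMSO are filled, and FOXQ1 has the widest bars (0.53 with DMSO).

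The RNAPII peak lists, 1 per group, hold peaks that contain a TSS, with a start and an end and no height, so they say whether a peak was listed and not how strong it was. The NT list held 11222 peaks and covered the main TSS of 47.7% of 19881 protein-coding genes, the NT+TPL list 8653 peaks and 38.2%, the TAM list 11056 peaks and 42.1%, and the TAM+TPL list 8464 peaks and 37.4%; the peak names of the TAM list carry another threshold tag than those of the other 3, so differences between TAM and another list cannot be told apart from that. Of the 10 genes, 9 had a peak over their main TSS in NT (all but FOXQ1), 5 in NT+TPL (FOXO1, FOXO3, FOXK2, FOXJ3 and FOXC1), 9 in TAM (all but FOXO4) and 6 in TAM+TPL (the same 5 genes and FOXK1). Of the 9 with a peak in NT, 4 had none in NT+TPL (FOXO4, FOXP1, FOXP4 and FOXK1), against 22.9% of all genes with a peak in NT. Of the 9 with a peak in TAM, 3 had none in TAM+TPL (FOXP1, FOXP4 and FOXQ1), against 19.1%. The 5 genes listed in all 4 groups stand beside 6264 of all 19881 genes (31.5%), a share that includes genes with no peak. Of the 9488 genes with a peak in NT, 6264 were in all 4 lists, as were 5 of the 9 members with a peak in NT.

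Some genes fell with TPL and lost their listed peak (FOXP4 in both states, FOXK1 in NT and FOXP1 and FOXQ1 in TAM cells), and others fell and kept it or rose without it. FOXK2 fell with TPL in both states and kept its peak (chr17:80476931-80477770 in NT, chr17:80477249-80477726 in NT+TPL), which shrank from 840 to 478 bp and, in TAM cells, from 667 to 502 bp. The edge that moved was mostly the upstream one, from 677 to 359 bp before the TSS in NT cells. FOXC1 rose in NT cells with a peak that went from 867 to 504 bp, and FOXO1 fell with peaks of 331 bp in NT and 315 bp in NT+TPL. FOXO4 rose with TPL and had a peak only in the NT list, of 288 bp (chrX:70315436-70315723), where 14.8% of all genes with a peak in NT had none in TAM; in TAM a peak lay within 500 bp of the TSS but not over it. FOXP1 and FOXP4 had a peak in both DMSO lists and in neither TPL list. The FOXP1 peak was 2570 bp wide in NT, the widest of the set, and 518 bp in TAM; of its 67 annotated start sites 1 still lay in a peak in each TPL list. The FOXP4 peak spanned 1016 bp in NT, and in TAM 309 bp beginning at the TSS itself. FOXQ1 had a peak in the TAM list alone (chr6:1311960-1312539), the group with its high transcript level; 3.35% of all genes with a peak in TAM had none in NT. FOXJ3 peaks were wider with TPL (944 and 1000 bp in NT and NT+TPL, 610 and 1009 bp in TAM and TAM+TPL), whereas the FOXO3 peak was 1773 bp in NT and 622 bp in NT+TPL. Over all genes with a peak in both lists, the median ratio of widths was 0.877 from NT to NT+TPL and 1.04 from TAM to TAM+TPL. FOXF2 had a peak in NT and in TAM and in neither TPL list.

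**Figure D4:**
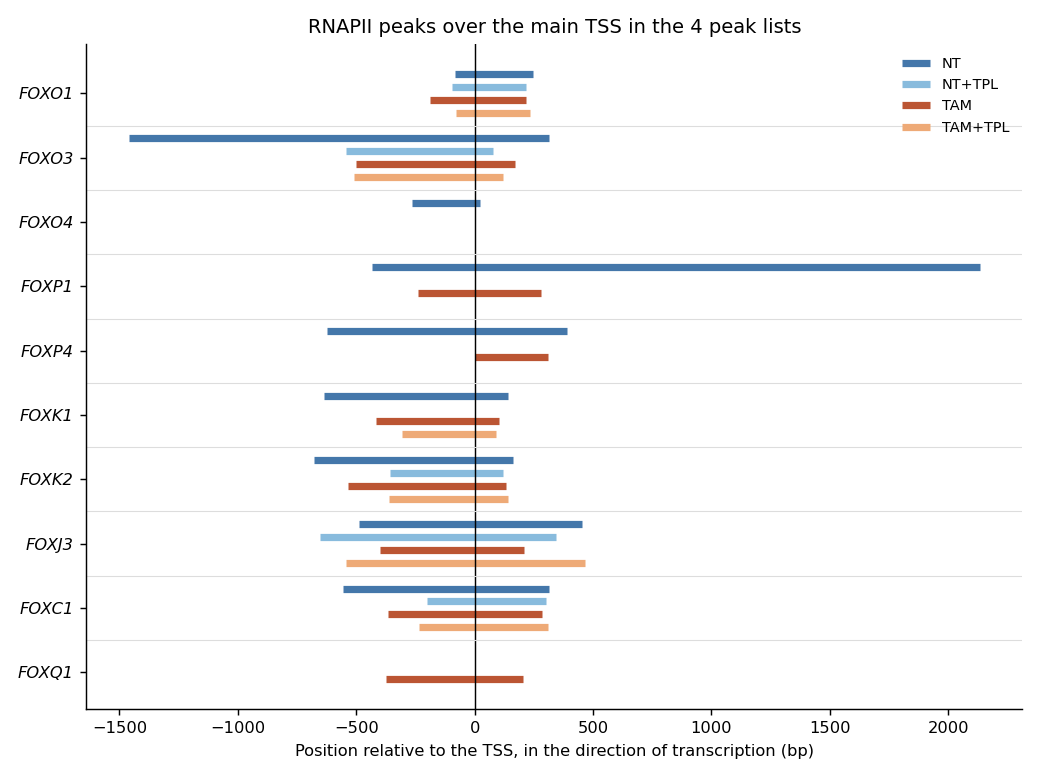
Span of the RNAPII peak over the main TSS of each gene (bars, one colour per list) by position relative to the TSS in bp, with negative values upstream; a missing bar means no peak over the TSS in that list. FOXO1, FOXO3, FOXK2, FOXJ3 and FOXC1 have all 4 bars, FOXP1 and FOXP4 only those of the DMSO lists, FOXO4 only that of NT and FOXQ1 only that of TAM.

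The genes that surround the FOXO factors in their pathway were described with lists, whose counts stand beside the 19.8% of all genes tested that fell and 17.2% that rose with TPL in NT cells and the 18.6% and 14.3% in TAM cells. Of 22 genes of insulin and AKT signalling upstream of FOXO, 6 fell and 1 rose with TPL in NT cells, and 4 fell and 3 rose in TAM cells, with a median log2 fold change of -0.12 and -0.05. PIK3R1, the regulatory subunit of PI3-kinase, fell (-2.66 ± 0.37 SE in NT and -2.57 ± 0.36 SE in TAM cells), as did SGK1, a kinase that phosphorylates FOXO3 (-2.18 ± 0.16 SE and -1.93 ± 0.16 SE), from 71.5 and 89.3 FPKM in NT to 17.9 and 17.9 in NT+TPL. PIK3CB, a catalytic subunit of PI3-kinase (-1.63 ± 0.28 SE and -1.23 ± 0.27 SE), and IGF1R, a receptor for insulin-like growth factors (-0.92 ± 0.25 SE and -1.27 ± 0.25 SE), fell in both states too. IRS2, an insulin receptor adaptor, rose (0.91 ± 0.19 SE in NT and 1.92 ± 0.21 SE in TAM cells), and the kinase gene SGK3 (0.67 ± 0.19 SE) and TSC1 (0.69 ± 0.21 SE), a brake on mTOR, rose in TAM cells and did not pass in NT cells (0.34 ± 0.19 SE, adjusted p = 0.192, and 0.29 ± 0.21 SE, adjusted p = 0.324). Of 21 genes of FOXO export, acetylation and turnover, 8 fell and 0 rose in NT cells and 9 fell and 0 rose in TAM cells (medians -0.26 and -0.33). At an unadjusted p under 0.05 in edgeR, 2 were higher in NT and 0 in TAM cells. Of all genes, 47.8% and 45.1% passed that limit in either direction. DESeq2 called 2 higher in NT and 0 in TAM cells, counted separately. The exportin gene XPO1 fell from 18.1 and 27.2 FPKM in NT to 4.45 and 2.65 in NT+TPL (-2.69 ± 0.28 SE, and -1.61 ± 0.27 SE in TAM cells), and the 14-3-3 genes SFN (-1.33 ± 0.19 SE and -1.10 ± 0.19 SE) and YWHAH (-0.96 ± 0.14 SE and -1.23 ± 0.14 SE) fell in both states.

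Genes known as FOXO targets moved in both directions. Of 29 tested, 13 rose and 5 fell with TPL in NT cells and 7 rose and 5 fell in TAM cells (medians 0.14 and 0.13, beside 0.09 and 0.05 over all genes). Among those that rose, SESN3, an antioxidant sestrin, went from 0.10 and 0.12 FPKM in NT to 2.26 and 1.27 in NT+TPL (3.97 ± 0.64 SE on the log2 scale, and 4.14 ± 0.64 SE in TAM cells). The death ligand gene TNFSF10 (3.32 ± 0.46 SE in NT cells), the BH3-only gene PMAIP1 (2.89 ± 0.15 SE in NT and 1.44 ± 0.14 SE in TAM cells) and the repressor gene BCL6 (1.89 ± 0.30 SE in NT and 1.52 ± 0.29 SE in TAM cells) rose too; TNFSF10 did not pass in TAM cells (1.03 ± 0.41 SE, adjusted p = 0.0975). KLF6, a zinc-finger factor, had the strongest fall and went in NT cells from 210 and 215 FPKM with DMSO to 11.3 and 11.7 with TPL (-4.20 ± 0.17 SE, and -4.61 ± 0.17 SE in TAM cells), and TRIB1, a pseudokinase that modulates AKT and MAPK signalling, fell in both states (-2.56 ± 0.35 SE and -2.23 ± 0.34 SE). The cyclin gene CCND2 fell in both states (-2.68 ± 0.18 SE and -1.08 ± 0.18 SE), and CCNG2 fell in TAM cells (-2.43 ± 0.40 SE), with -0.08 ± 0.40 SE in NT cells (adjusted p = 0.896). These genes answer to many other factors, and the lists were not tested for a shift of their own. The targets were not divided into genes that FOXO factors raise and genes that they lower. Their rises and falls therefore give no direction of FOXO action.

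Of 23 partners of the FOXK and FOXP factors, 13 fell and 2 rose with TPL in NT cells and 14 fell and 1 rose in TAM cells (medians -0.75 in each state), where 19.8% and 18.6% of all genes fell. CTBP2, a corepressor (-1.99 ± 0.20 SE and -2.36 ± 0.20 SE), MTA2, a subunit of the NuRD complex (-1.82 ± 0.13 SE and -1.40 ± 0.13 SE), and DVL1, a Wnt mediator that FOXK proteins carry into the nucleus (-1.62 ± 0.29 SE and -1.60 ± 0.29 SE), had the strongest falls. OGT, the transferase that adds O-GlcNAc and works with the BAP1 complex, rose in both states (0.78 ± 0.15 SE and 1.25 ± 0.15 SE), and the histone chaperone gene RBBP7 rose in NT cells (0.54 ± 0.16 SE) and had -0.08 ± 0.16 SE in TAM cells (adjusted p = 0.718). Of 34 other forkhead genes 26 were listed and 13 could be tested. In edgeR 2 fell and 1 rose in NT cells, and 4 fell and 0 rose in TAM cells (medians -0.89 and -0.61). In TAM cells 1 was higher at an unadjusted p under 0.05 in edgeR, a limit that 45.1% of all genes passed in either direction. DESeq2 called 0 higher there. Besides FOXF2, FOXN2 fell from 10.2 and 12.6 FPKM in NT to 1.34 and 0.50 in NT+TPL (-3.64 ± 0.39 SE, and -2.04 ± 0.37 SE in TAM cells), and FOXC2, a regulator of mesenchymal genes, fell in TAM cells (-1.49 ± 0.35 SE), with -0.82 ± 0.35 SE in NT cells (adjusted p = 0.105). Values given without a p in these paragraphs had an adjusted p of at most 0.05 in edgeR's quasi-likelihood test.

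**Figure D5:**
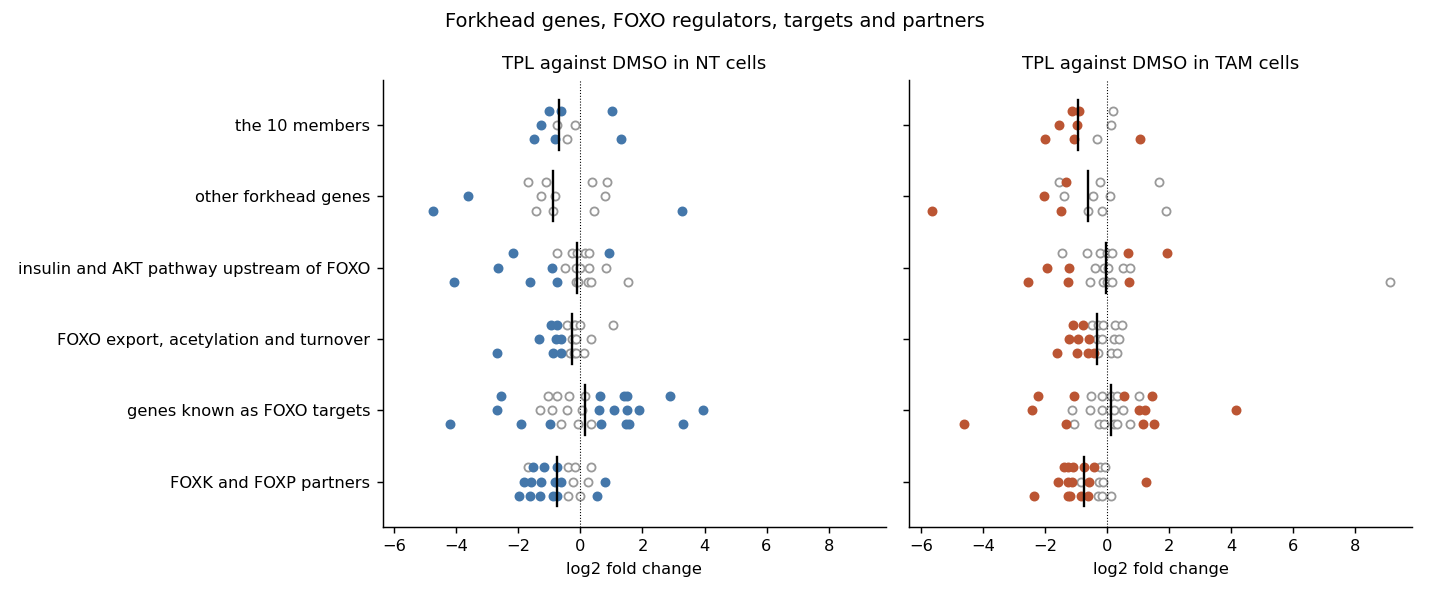
Log2 fold change of TPL against DMSO (horizontal axis) in NT (left) and TAM cells (right) for the 10 genes and the 5 lists (rows); each point is a gene, filled where the adjusted p is at most 0.05, and the vertical bar is the median of the row. The partners of FOXK and FOXP lie mostly left of 0 (median -0.75 in each state) and the FOXO targets spread to both sides; the point farthest right in TAM cells, TSC2, did not pass (adjusted p = 0.131).

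The genes whose levels followed each member most closely over the 8 libraries were found by Pearson's r of log2(FPKM + 1) among 14479 genes with a mean of at least 1 FPKM. FOXK2 had the closest neighbour, GNA12 (r = 0.999), followed by FOXK1 with KRI1 (0.994), FOXO4 with C1RL (0.992), FOXP4 with SETD1A (0.991), FOXO1 with IRAK1BP1 (0.990), FOXJ3 with AAK1 (0.989), FOXQ1 with CDC20 (0.986), FOXP1 with SP100 (0.985), FOXO3 with FAT4 (0.983) and FOXC1 with ITPKA (0.979). The libraries share 4 groups and each best match was the highest of 14479 values, so these values describe a likeness and nothing more.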

How the data were processed

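The samples comprise 8 RNA-Seq libraries (2 per group), 8 RNAPII ChIP-Seq samples and 2 inputs. Expected counts and FPKM values are as deposited by the authors: poly-A RNA was sequenced, reads were mapped to reference genes with Bowtie2, and RSEM estimated both quantities. The peak lists deposited by the authors (other values: starts and ends) were called over input on hg19 with MACS; whether replicates were pooled is not given in the sources used here. The members and gene lists were chosen with earlier results of these data known.

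Genes without a row in a file were set to 0. Rounded expected counts entered edgeR 4.0.16 (R 4.3.3) with filterByExpr, TMM factors and 1 model of 4 groups over 16948 genes, tested by quasi-likelihood with p-values adjusted by Benjamini-Hochberg. The common dispersion was 0.0990. A gene passed at an adjusted p of at most 0.05. Fold changes are from this fit, not ratios of FPKM. Each SE was derived from the test, as the absolute log2 fold change divided by the square root of its F value. Where a group was left with 1 library, that library was assumed to vary like the other groups. All 10 members are named; of each list, up to 3 genes per direction with the largest change, a mean of at least 1 FPKM and a passing test. FPKM compares levels between genes per length. Alternatives were DESeq2 1.42.0, limma 3.58.1 on log2(FPKM + 1) and log2(FPKM + 0.1), 4 other scalings, other filters (none; at least 10 counts in every library; a mean of at least 1 FPKM), summed entries, a replicate block, the compared groups alone and leaving out each library. Peaks were matched to TSSs of GENCODE release 44 on build 37; motifs were chosen with the sequences in view. The scripts were tested on simulated data.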

Additional observations from a re-analysis of the deposited data

How the results depend on the processing

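The falls of FOXK1 and FOXK2 in both states and of FOXO1 in NT cells passed under every alternative. With the stricter limits 0 members passed with TPL in NT, TPL in TAM or TAM against NT with DMSO, and 2 over both states. Leaving out 1 library gave 4 to 7 members passing with TPL in NT cells, 2 to 7 with TPL in TAM cells, 0 to 3 for TAM against NT with DMSO, 0 to 1 with TPL, 0 for the difference of the TPL effects and 6 to 9 over both states. For the lists in NT and TAM cells these ranges were 2 to 6 and 1 to 5 for other forkhead genes, 5 to 7 and 3 to 9 upstream of FOXO, 5 to 9 and 4 to 9 for FOXO export and turnover, 14 to 20 and 10 to 15 for FOXO targets, and 9 to 16 and 7 to 15 for the partners. For TAM against NT, DESeq2 called 5 members with DMSO and 1 with TPL; with TPL, GAPDH scaling, at least 10 counts in every library and summed entries each called 1. DESeq2 called 1 member for the difference of the TPL effects. Outside the main fit and the 4 other scalings, the share of all genes called was not counted. Counts from DESeq2, a left-out library and the other settings thus have no background beside them. They describe no trait of the members or lists. Other forkhead genes passing in NT cells numbered 7 under GAPDH scaling, 6 with summed entries and 5 with DESeq2, and genes of FOXO export 5 with the 2 groups compared alone.

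With a replicate block, 0 members passed for TAM against NT with DMSO (FOXO3 adjusted p = 0.0621, FOXP1 0.0517, FOXQ1 0.0738), and FOXJ3 in NT (0.0578) and FOXO4 in TAM cells (0.0577) lost their calls. Over all genes tested, the deviations of same-numbered libraries had r between -0.135 and 0.0501, and the libraries were not treated as pairs. Such values over all genes cannot show whether some genes share a pairing. Upper-quartile scaling moved the median of all genes with TPL to 0.31 and GAPDH scaling to -0.26 in NT cells. The following signs, none of a call, turned. Under upper-quartile scaling these were FOXP1 with TPL in NT (0.058) and FOXO3 over both states (0.11), and under GAPDH scaling FOXK2 for TAM against NT with DMSO (-0.36), FOXP1 for TAM against NT with TPL (-0.10), and the difference of the TPL effects of FOXO4 (0.0087), FOXP4 (0.15) and FOXK1 (0.11). Leaving out a library gave FOXP1 with TPL in NT -0.35 to 0.017 and FOXC1 in TAM -0.079 to 0.31. For TAM against NT with DMSO it gave FOXP4 -0.17 to 0.078 and FOXK1 -0.46 to 0.039, and with TPL FOXO1 -0.27 to 0.12, FOXP1 -0.0073 to 0.34, FOXP4 -0.33 to 0.15, FOXK2 -0.33 to 0.071 and FOXC1 -0.37 to 0.022. The difference of the TPL effects was -0.53 to 0.11 for FOXO4, -0.31 to 0.16 for FOXP4 and -0.35 to 0.15 for FOXK1. The cause was not tested. FOXQ1, with 4 counts in its lowest library, was not tested under the filter of at least 10 counts in every library. With 2 libraries per group and low counts for FOXQ1, small differences could not be detected; the peak counts stayed within 1.5 times under other TSS rules.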

Other observations

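A few genes of the FOXO pathway differed between TAM and NT cells. With DMSO, 2 of the 22 genes upstream of FOXO passed in edgeR, both lower in TAM than in NT cells. Of all genes tested, 3.39% were lower and 3.46% higher in this comparison, so 2 of 22 is near the share of all genes in either direction. INPP4B, a phosphatase that removes PI3-kinase products, had 2.66 and 2.93 FPKM in NT against 0.53 and 0.41 in TAM (log2 fold change -2.55 ± 0.35 SE, adjusted p = 0.00764 in edgeR), and with TPL it was lower in TAM cells too (-2.69 ± 0.36 SE, adjusted p = 0.00663). IRS2, which rose with TPL in both states, had 5.70 and 6.93 FPKM in NT and 2.32 and 1.87 in TAM (-1.57 ± 0.20 SE, adjusted p = 0.00599). Of the 21 genes of FOXO export, acetylation and turnover, 1 passed in edgeR with DMSO, also near that share, and it was lower in TAM cells. It was the 14-3-3 gene SFN, with 2440 and 1880 FPKM in NT and 896 and 810 in TAM (-1.32 ± 0.19 SE, adjusted p = 0.00901).

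Of the 29 genes known as FOXO targets, 4 were higher and 2 lower in TAM than in NT cells with DMSO, where 3.46% of all genes tested were higher and 3.39% lower. CCNG2, a cyclin linked to cell-cycle exit, had 0.64 and 1.16 FPKM in NT and 5.03 and 5.65 in TAM (2.58 ± 0.41 SE, adjusted p = 0.0124), and 0.77 and 1.28 in TAM+TPL. The death genes PMAIP1 (1.47 ± 0.14 SE, adjusted p = 0.00187) and BNIP3 (1.17 ± 0.19 SE, adjusted p = 0.0141) were higher, and CCND2 (-1.85 ± 0.17 SE, adjusted p = 0.00166) and the DNA damage gene GADD45A (-1.09 ± 0.18 SE, adjusted p = 0.0159) were lower. With TPL present, 2 of the 29 passed in edgeR, near the 7.03% of all genes that did. Both were lower in TAM cells. They were MXI1 (-1.03 ± 0.17 SE, adjusted p = 0.0164) and CDKN1A, which encodes the inhibitor p21 (-0.78 ± 0.17 SE, adjusted p = 0.0418).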
